A study of Mus musculus with 15 samples.

Results

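The histone variant H3.3 was mapped in mouse bone marrow-derived macrophages (BMDMs). The regions described here had their midpoint in an intron and overlapped a pair of active marks. Only the midpoint had to be intronic, so a wide region can reach into exons or past the ends of its gene. A region was selected when it was called for HA-tagged H3.3 (H3.3-HA) in both replicates, when it overlapped a region of both wild-type (WT) libraries of acetylated histone H3 lysine 27 (H3K27ac) and of both WT libraries of trimethylated histone H3 lysine 36 (H3K36me3), and when its midpoint fell in an intron of a protein-coding gene. Of 27647 H3.3-HA regions shared by the replicates, 15532 had an intronic midpoint and 4072 met every condition. These 4072 are called dual-mark regions below. They were chosen by calls in the H3.3-HA and WT lists, so their presence in those lists is not a result. What was left free was their place in their host genes, their sequence, and which mark was called there in H3.3 conditional knockout (cKO) cells.

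All libraries came from CUT & RUN, in which an antibody tethers a nuclease to chromatin and the released fragments are sequenced, with 2 biological replicates for each of 5 groups. The H3.3-HA cells came from knock-in mice with HA-tagged H3f3b in place of H3f3b, so the tag reports only the H3.3 made from that gene. WT cells carried the floxed alleles H3f3a fl/fl and H3f3b fl/fl without Cre, and H3.3cKO cells carried the same alleles with LysM cre/cre, a Cre placed at the myeloid gene Lyz2. Mice were 8 to 10 weeks old, of both sexes and of C57BL/6 background, and bone marrow was cultured for 6 to 8 days in L929-conditioned medium. H3.3-HA, WT and cKO cells were therefore different mice, and H3.3 itself was mapped only in the HA-tagged cells. Deletion in a LysM-Cre line can be incomplete, and the lists cannot show how complete it was: regions covered 23.9 and 24.1% of the H3f3b gene body for H3K27ac in WT replicates 1 and 2, and 55.4 and 73.6% in cKO replicates 1 and 2.

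H3.3 is deposited outside DNA replication, at promoters, enhancers and transcribed gene bodies, and is encoded by H3f3a and H3f3b. H3K27ac marks active enhancers and promoters. H3K36me3 is laid down by SETD2 travelling with elongating RNA polymerase II, and accumulates over the body of transcribed genes. An intronic region with both marks can thus be a place where a candidate enhancer lies within transcribed chromatin, though the calls do not establish this for each region.

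The lists gave positions without heights, so every value below is a call or a covered length. The libraries held 5365319 to 29988098 tags. The first cKO H3K36me3 library stood apart from the other 3 of that mark, with 19.3% of its tags in regions against 46.5 to 50.2%, and 90.6 Mb covered against 163.3 to 170.3 Mb. The cKO H3K27ac lists were shorter than the WT lists, at 35018 and 41443 against 61764 and 54630 regions. Control IgG libraries differed between genotypes, so genotype and control cannot be told apart. H3K36me3 regions were present in both WT libraries at 7 of 8 macrophage marker genes, and at 0 of 5 T cell, 0 of 5 B cell, 0 of 5 neutrophil, 0 of 4 erythroid and 0 of 5 stromal and endothelial marker genes. H3K27ac regions were present in both WT libraries at 7 of the macrophage genes, 1 of the B cell genes and 2 of the stromal and endothelial genes. In cKO, H3K27ac regions also lay at neutrophil and erythroid marker genes that had none in WT. They covered 4.62% of Mpo in replicate 1 alone, and 16.3% of Elane, 10.2% of Camp and 23.8% of Klf1 in replicate 2 alone. Marker genes of the other cell types hosted no dual-mark region. The rule asks for H3K36me3 in both WT libraries, so this adds little to the WT counts above. A dual-mark region was hosted by 6 of the 8 macrophage genes, against 9.38% of all protein-coding genes.

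The sequences of 5 regions follow, to show what lay at the centre of regions whose cKO replicates gave the same calls. Regions whose replicates differed are not among them. They are 300 bp at the centre of the longest stretch called in both H3.3-HA and all 4 WT mark lists, taken among the 2 regions with the longest such stretch per outcome, from the plus strand of the RefSeq GRCm38.p6 genome, which is the build mm10. Capitals mark matches, on either strand, to the motifs of macrophage factors listed further below, and a window without capitals held none of them. The windows in P2ry6, Ptpra and Prkch, also among the 2 per outcome, are not shown and held none of these motifs.

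Slc43a2, both marks kept, chr11:75561047-75561346: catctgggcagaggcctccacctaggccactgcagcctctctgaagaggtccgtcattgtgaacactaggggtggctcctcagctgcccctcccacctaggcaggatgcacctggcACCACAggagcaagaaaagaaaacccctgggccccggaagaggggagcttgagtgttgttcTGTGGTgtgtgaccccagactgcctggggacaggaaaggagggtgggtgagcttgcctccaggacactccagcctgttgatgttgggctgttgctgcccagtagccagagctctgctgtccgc
Pid1, H3K36me3 alone kept, chr1:84190738-84191037: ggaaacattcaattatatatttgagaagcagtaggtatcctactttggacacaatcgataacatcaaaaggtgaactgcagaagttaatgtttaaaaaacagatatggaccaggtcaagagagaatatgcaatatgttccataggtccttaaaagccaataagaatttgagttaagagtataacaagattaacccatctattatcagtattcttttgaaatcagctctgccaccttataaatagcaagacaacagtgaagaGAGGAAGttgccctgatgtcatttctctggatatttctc
Nrp1, H3K36me3 alone kept, chr8:128435285-128435584: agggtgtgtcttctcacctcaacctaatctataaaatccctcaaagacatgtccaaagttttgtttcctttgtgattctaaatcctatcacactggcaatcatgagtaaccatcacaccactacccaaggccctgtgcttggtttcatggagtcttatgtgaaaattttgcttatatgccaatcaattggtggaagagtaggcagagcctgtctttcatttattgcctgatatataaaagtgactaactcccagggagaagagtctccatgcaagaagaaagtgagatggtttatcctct
Smox, H3K27ac alone kept, chr2:131493457-131493756: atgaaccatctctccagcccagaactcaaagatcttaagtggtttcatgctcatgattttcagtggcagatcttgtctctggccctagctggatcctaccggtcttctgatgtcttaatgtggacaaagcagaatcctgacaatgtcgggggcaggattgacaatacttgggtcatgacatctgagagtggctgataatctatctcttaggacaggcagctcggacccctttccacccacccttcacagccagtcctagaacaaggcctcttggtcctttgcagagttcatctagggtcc
Tns3, neither kept, chr11:8455785-8456084: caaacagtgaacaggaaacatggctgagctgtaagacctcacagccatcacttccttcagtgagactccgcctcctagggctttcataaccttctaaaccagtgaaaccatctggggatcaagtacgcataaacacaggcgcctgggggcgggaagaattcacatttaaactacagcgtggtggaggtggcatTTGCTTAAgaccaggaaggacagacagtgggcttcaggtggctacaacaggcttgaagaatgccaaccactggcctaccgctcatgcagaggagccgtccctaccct

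Slc43a2 encodes an amino acid transporter, and its region (7353 bp, intron 6, plus strand gene) held 2 RUNX letters. H3K27ac covered 6266 and 5868 bp of it in WT replicates 1 and 2 and 4832 and 5187 bp in the cKO replicates. H3K36me3 covered 6545 and 6541 bp in WT and 6649 and 7353 bp in cKO. Both marks were thus called over most of this region in all 8 libraries.

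The Pid1 and Nrp1 regions showed the outcome in which H3K36me3 was called in both cKO libraries and H3K27ac in neither. In Pid1, which encodes an adaptor that binds the receptor LRP1, the region (6396 bp, intron 1) had 4911 and 5134 bp of H3K27ac in WT and 0 bp in either cKO library. H3K36me3 covered 5144 and 5849 bp there in WT, 1211 bp in cKO replicate 1 and 6396 bp in cKO replicate 2. In Nrp1, a co-receptor for semaphorins and VEGF, the region (5391 bp, intron 6) had 4081 and 4080 bp of H3K27ac in WT and 0 bp in either cKO library, while H3K36me3 covered all 5391 bp in both WT libraries and 4262 and 5391 bp in cKO. The opposite outcome had fewer regions. In Smox, encoding spermine oxidase, a region of 1474 bp in intron 1 had H3K27ac over all 1474 bp in both WT libraries and over 414 and 403 bp in cKO, whereas H3K36me3 covered 1419 and 1421 bp in WT and 0 bp in cKO. In Tns3, encoding the focal adhesion protein tensin 3, a region of 1203 bp in intron 20 had both marks in WT and neither in cKO.

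To ask which mark was still called in cKO, each dual-mark region was sorted by the number of cKO libraries that overlapped it by at least 1 bp. Both marks were called in both cKO libraries at 1867 regions (45.8%, Wilson 95% interval 44.3 to 47.4). H3K36me3 was called in both libraries and H3K27ac in neither at 602 (14.8%, 13.7 to 15.9), H3K27ac in both and H3K36me3 in neither at 108 (2.65%), and no mark in any cKO library at 74 (1.82%). The other 1421 regions (34.9%) were split, with a mark in 1 of its 2 libraries. Intervals cover counting error over regions only, and regions are not replicates.

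**Figure D1:**
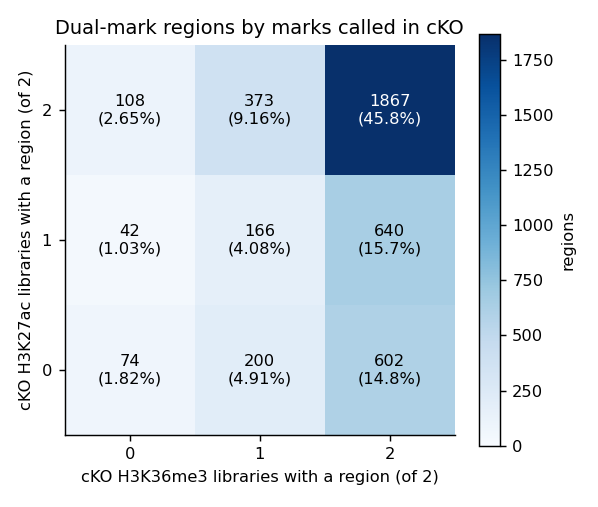
Number and percent of the 4072 dual-mark regions by how many of the 2 cKO H3K27ac libraries (vertical axis) and of the 2 cKO H3K36me3 libraries (horizontal axis) had a region there. The largest cell holds 1867 regions with both marks in all 4 libraries, and the right column holds more regions than the left at every level of H3K27ac, 602 against 74 in the bottom row.

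Counted mark by mark, H3K27ac was found in both cKO libraries at 2348 dual-mark regions (57.7%), in 1 at 848 (20.8%) and in neither at 876 (21.5%). H3K36me3 was found in both at 3109 (76.4%), in 1 at 739 (18.1%) and in neither at 224 (5.50%). Those shares lay near the background of shared H3.3-HA regions at any position that had the mark in both WT libraries. There H3K27ac was called in both cKO libraries at 59.7% and in neither at 20.6%, and H3K36me3 in both at 75.2% and in neither at 6.3%. Among the 5083 shared regions with both marks at any position, 15.3% kept H3K36me3 without H3K27ac, against 14.8% of the intronic ones. The dual-mark regions are themselves part of these backgrounds, and make up 4072 of the 5083 regions. Likeness of the shares is thus partly built in, and does not show whether intronic regions differ from others.

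Library by library, H3K27ac overlapped 66.1 and 70.1% of the dual-mark regions in cKO replicates 1 and 2 (mean 68.1% ± 2.81, SD, n = 2), and H3K36me3 overlapped 77.8 and 93.0% (85.4% ± 10.7). Both H3K36me3 libraries lay above both H3K27ac libraries. The difference was 17.4 percentage points (exact two-sided permutation test of 2 against 2 libraries, p = 0.333, the smallest p this design allows). In cKO replicates 1 and 2 the H3K36me3 lists covered 90.6 and 163.3 Mb, and the H3K27ac lists 46.2 and 62.0 Mb. A mark whose lists cover more bases can touch more regions, and the part of covered length in this difference was not tested. The difference was 9.75 points without the cKO H3K36me3 replicate 2 and 27.7 points when H3.3-HA replicate 2 was left out. When a mark had to cover at least 50% of the H3.3-HA region, 1397 regions remained, of which 32.6% had H3K27ac and 66.6% had H3K36me3 in both cKO libraries, and 31.9% had H3K36me3 alone. Alone there meant H3K27ac over less than 50% of the region in both cKO libraries, not its absence. The 31.9% is thus not the same outcome as the 14.8% given above. The share with H3K36me3 alone was 22.2% without H3.3-HA replicate 2 and 23.6% without cKO H3K27ac replicate 2.

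Covered length was read next. The rule required a call of each mark in both WT libraries, so the WT lengths of dual-mark regions are not free of the selection. This limit holds for WT lengths given by region, gene and gene group throughout. H3K27ac covered 74.9 and 67.8% of the summed length of the dual-mark regions in WT and 38.0 and 44.3% in cKO, with both cKO libraries below both WT libraries. H3K36me3 covered 58.0 and 60.1% in WT, 49.4% in cKO replicate 1 and 73.4% in cKO replicate 2. The cKO libraries of H3K36me3 lay on either side of the WT libraries, so their mean (61.4% ± 17.0) differed from the WT mean (59.1% ± 1.54) by less than the spread between replicates. Over all shared H3.3-HA regions, which were not chosen by the marks, H3K27ac covered 53.3 and 47.7% in WT and 30.3 and 38.2% in cKO.

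**Figure D2:**
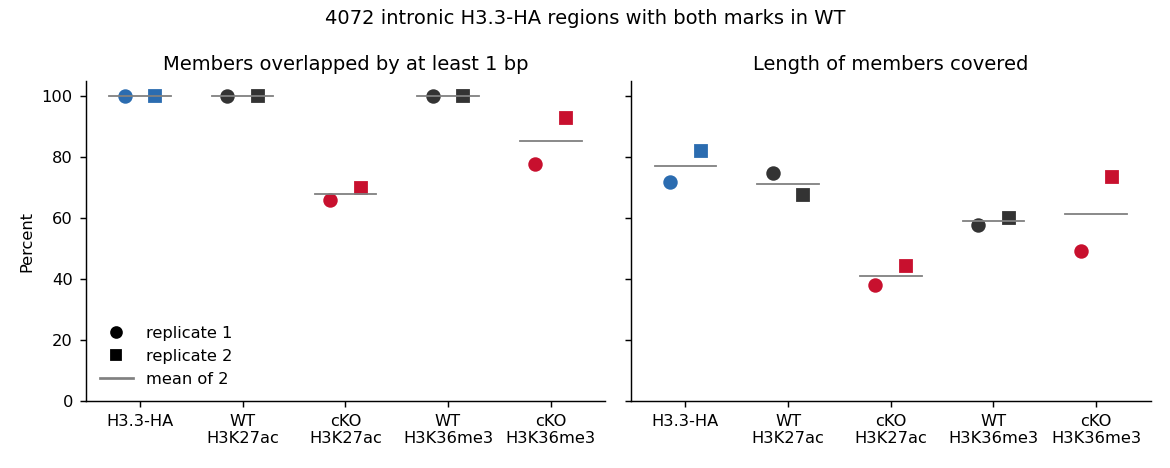
Percent of dual-mark regions overlapped by at least 1 bp (left) and percent of their summed length covered (right) in each library, with circles for replicate 1, squares for replicate 2 and grey lines for the mean of 2 libraries. The WT and H3.3-HA points at 100% on the left are set by the selection. The WT and H3.3-HA points on the right are not free of it either, since a call in each of those libraries was required. On the right both cKO H3K27ac points (38.0 and 44.3%) lie below the WT points (74.9 and 67.8%), and the cKO H3K36me3 points (49.4 and 73.4%) lie on either side of WT.

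The WT value of 100% overlapped is fixed by the selection, so a library left out of it was used as a fairer reference. With H3K27ac required in only WT replicate 1, the unused WT replicate 2 overlapped 87.8% of 4636 regions, and the cKO libraries 62.3 and 66.2%. With only WT replicate 2 required, the unused WT replicate 1 overlapped 94.2% of 4322 regions and the cKO libraries 64.2 and 68.0%. In both arrangements each cKO library overlapped a smaller share than the unused WT library. For H3K36me3, the unused WT library overlapped 89.9% of 4531 and 85.9% of 4743 regions. The cKO replicate 1 overlapped 73.3 and 71.6% of these and the cKO replicate 2 overlapped 89.8 and 88.1%, so the second cKO library lay within a few points of the unused WT library and the first lay below it.

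Selection in the opposite direction, from the cKO lists, gave the opposite order of the marks. There were 2585 intronic H3.3-HA regions with both marks in both cKO libraries of each, and 1867 of them (72.2%) were dual-mark regions by the WT rule. H3K27ac was called in both WT libraries at 90.6% of the 2585 and H3K36me3 at 79.8%.

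The marks did not always sit on the same bases. A stretch with both marks in both WT libraries was present in 3355 dual-mark regions (82.4%), and a stretch that was also called in both H3.3-HA libraries in 2698 (66.3%), with a median length of 500 bp. Of the 12.1 Mb of dual-mark regions, 28.3% was covered by both marks in all 4 WT libraries, 24.9% by H3K27ac in both WT libraries and by no H3K36me3 region, and 13.4% by H3K36me3 in both and by no H3K27ac region. Bases with both marks in WT were covered by H3K27ac for 42.7 and 47.8% in cKO and by H3K36me3 for 68.7 and 91.6%.

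Bases that carried H3K27ac alone in WT were examined for H3K36me3 in cKO. H3K36me3 covered 24.5% of them in cKO replicate 1 and 49.1% in cKO replicate 2. Where H3K27ac was called in both cKO libraries the values were 27.4 and 52.1%, and where it was called in neither they were 18.8 and 43.1%. In each library H3K36me3 was therefore called over fewer of the bases without H3K27ac than of the bases with it. Bases with H3K36me3 alone in WT were covered by H3K27ac for 8.64 and 11.1% in cKO, and by H3K36me3 for 72.4 and 92.7%.

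**Figure D3:**
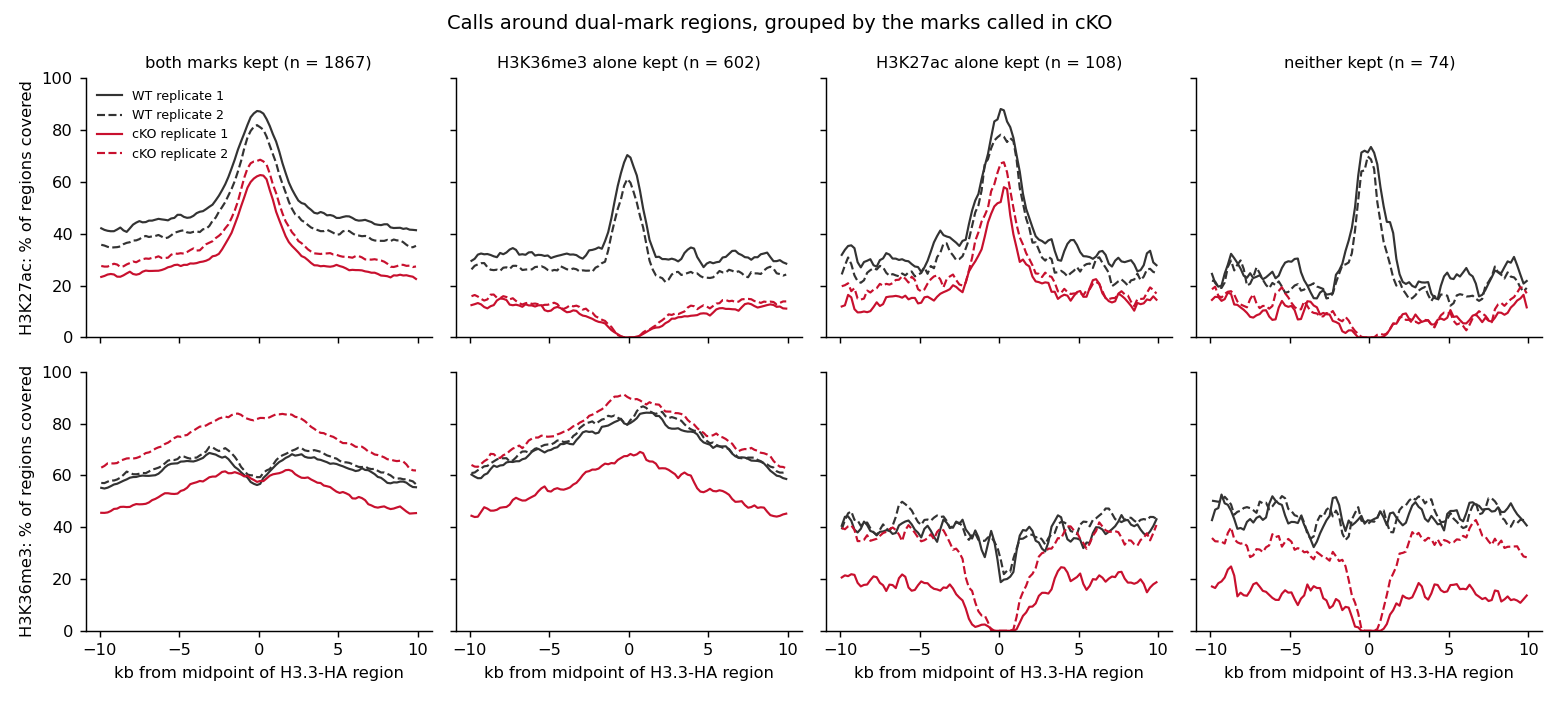
Percent of dual-mark regions covered by H3K27ac (top) or H3K36me3 (bottom) in 200-bp bins along the chromosome, from the midpoint of the H3.3-HA region to 10 kb either side, for the 4 outcomes in cKO; solid lines are replicate 1 and dashed lines replicate 2, black for WT and red for cKO. H3K27ac peaks at the centre in WT in all 4 panels, whereas H3K36me3 dips at the centre of regions that kept both marks and is high and broad where it alone was kept. Zero at the centre of a cKO line is set by the grouping.

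The 4 outcomes differed in the WT regions that held them. At regions that kept both marks, the WT H3K27ac regions had a median width of 4561 and 3640 bp in replicates 1 and 2, and the WT H3K36me3 regions 6664 and 7363 bp. At regions that kept H3K36me3 alone, the H3K27ac regions were narrower, at 1642.5 and 1278 bp, and the H3K36me3 regions wider, at 10619.5 and 12519 bp. These regions lay wholly inside a WT H3K36me3 region in 59.3 and 60.5% of cases, against 23.7 and 25.3% of those that kept both marks. Regions that kept H3K27ac alone sat on short H3K36me3 regions in WT (981 and 1076 bp) and on H3K27ac regions of intermediate width (2971 and 2726.5 bp). In these last 2 groups, the mark not called in cKO was the one with the narrower region in WT. H3K27ac regions were, however, also the narrower ones where both marks were kept. Regions that kept neither mark had WT H3K27ac regions of 1512.5 and 1185.5 bp and WT H3K36me3 regions of 1113 and 1388 bp.

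Around the centre of the regions with both marks kept, H3K36me3 covered 56.7 and 59.3% of them in WT in the bin 100 bp to the right of the midpoint, in chromosome coordinates, and 67.3 and 68.9% at 1900 bp. That dip was smaller at the regions with H3K36me3 alone kept, where the mark covered 80.3 and 81.4% at 100 bp and 83.0 and 84.3% at 1900 bp. In cKO replicate 2, H3K36me3 covered 82.2% of the regions with both marks kept at 100 bp, above both WT libraries, whereas in cKO replicate 1 it covered 57.8%.

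Width of the H3.3-HA region went with what was called. H3K27ac was called in both cKO libraries at 29.5% of the 329 dual-mark regions under 1000 bp, 44.1% of the 1180 from 1000 to 2000 bp, 61.0% of the 1706 from 2000 to 4000 bp and 80.6% of the 857 of at least 4000 bp. The share with H3K36me3 alone went the other way, from 28.3% in the narrowest group to 7.0% in the widest. For H3K36me3 in both cKO libraries the shares were 66.3, 69.7, 76.8 and 88.6%. A wider region has more bases in which a call can fall, and the part of width in these shares was not tested beyond this grouping. Median widths were 3096 bp for both marks kept, 1837.5 bp for H3K36me3 alone, 2409 bp for H3K27ac alone and 1652.5 bp for neither.

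**Figure D4:**
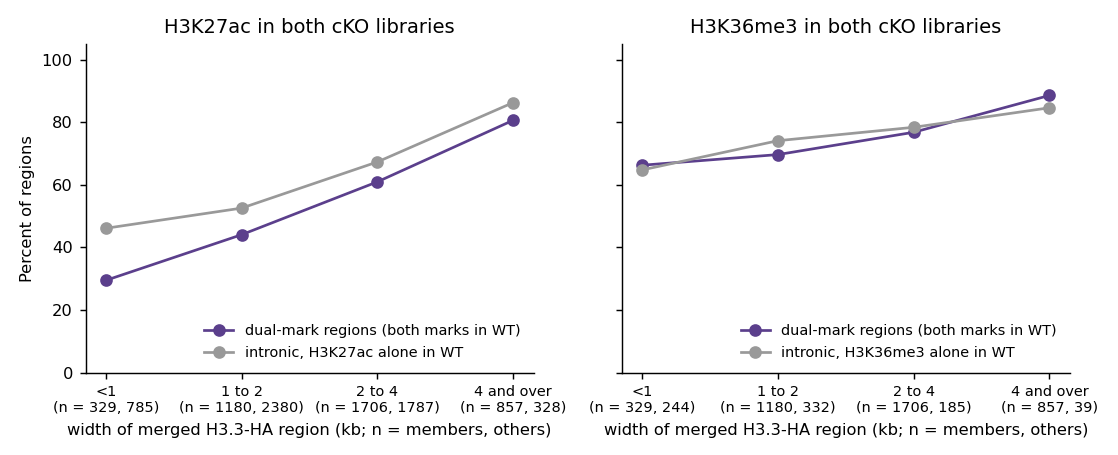
Percent of intronic H3.3-HA regions with H3K27ac (left) or H3K36me3 (right) in both cKO libraries by width of the merged H3.3-HA region, for dual-mark regions (purple) and for intronic regions that had only that mark in WT (grey). H3K27ac shares go from 29.5 to 80.6% in dual-mark regions and from 46.1 to 86.3% in the others, and the H3K36me3 lines lie close together.

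To see where dual-mark regions differed from the most similar sets, they were set against 5280 intronic H3.3-HA regions with H3K27ac alone in WT and 800 with H3K36me3 alone. H3K27ac was called in 66.1 and 70.1% of dual-mark regions and in 64.7 and 72.1% of the H3K27ac-alone regions in cKO replicates 1 and 2. The differences were 1.41 and −2.06 points, which did not point the same way (exact sign-flip permutation test within library, p = 1.0). When a mark had to cover at least 50% of the region, the mean difference was −14.6 points (exact sign-flip permutation test, p = 0.5, the smallest possible), and it was −7.48 points without H3.3-HA replicate 2. Under the 50% requirement, the sets with 1 mark alone had the other mark over less than 50% of the region in both WT libraries. Dual-mark regions were wider (median 2470 against 1738.5 bp), and within each width group their share with H3K27ac in both cKO libraries was the lower one, from 29.5 against 46.1% under 1000 bp to 80.6 against 86.3% at 4000 bp and over.

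H3K36me3 was called in 77.8 and 93.0% of dual-mark regions and in 73.6 and 91.3% of the H3K36me3-alone regions. The differences of 4.20 and 1.78 points were both positive (exact sign-flip permutation test, p = 0.5, the smallest possible with 2 libraries), and the mean was −0.834 under the requirement of 50% coverage. With 2 libraries no exact sign-flip permutation test can give a p below 0.5. These tests thus cannot show whether dual-mark regions differ from either set.

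Dual-mark regions sat deeper in their genes than regions with H3K27ac alone and less deep than those with H3K36me3 alone. From the start of the host gene to its end, the median position was 49.3% for dual-mark regions, 32.0% for H3K27ac alone, 67.6% for H3K36me3 alone and 35.1% for neither mark. The first intron held 23.8% of dual-mark regions, against 52.2, 8.25 and 46.9% of the other sets in that order. Within 5 kb of a transcription start site (TSS) lay 15.0% of dual-mark regions, 24.9% of H3K27ac-alone regions and 17.3% of H3K36me3-alone regions. Their host genes had a median length of 63233 bp counted per region, against 102396 bp for H3K27ac alone and 42869.5 bp for H3K36me3 alone. The same order held among outcomes: the first intron held 45.4% of the regions that kept H3K27ac alone, 25.4% of those that kept both marks and 12.1% of those that kept H3K36me3 alone, with median positions of 36.7, 48.3 and 57.5%. These positions were not used by the rule, but H3K36me3 is itself known to lie toward the end of genes, and no test was run on them. Of all shared regions with both marks, 80.1% were intronic, against 56.2% of all shared H3.3-HA regions.

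On the chromosomes, H3K27ac was called in both cKO libraries at 50.3 to 62.6% of the dual-mark regions of each autosome, and H3K36me3 at 63.4% (chromosome 17) to 82.5% (chromosome 11). Chromosome X held 15 dual-mark regions, of which 40.0% had H3K27ac and 93.3% had H3K36me3 in both cKO libraries. Both values lie outside the autosome ranges and rest on these 15 regions.

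Windows of 300 bp at the centre of the longest stretch called in both H3.3-HA libraries were searched on both strands for PU.1 (GAGGAAG), AP-1 (TGANTCA), C/EBP (TTGCNNAA), ISRE-like (GAAANNGAA), RUNX (TGTGGT) and TFE/MITF (CACGTG) letters, whose matches may overlap each other. PU.1, the factor that specifies macrophages, had its letters in 13.8% of dual-mark windows (Wilson 12.7 to 14.8), against 17.0% of all 27642 shared windows, 17.8% of H3K27ac-alone windows, 10.8% of H3K36me3-alone windows and 19.8% of windows with neither mark. ISRE-like letters were in 10.6% of dual-mark windows and 10.97% of all. AP-1 letters were in 11.7% against 12.1% of all, C/EBP in 12.4 against 13.9%, RUNX in 23.4 against 23.6% and TFE/MITF in 3.46 against 3.44%. Between outcomes PU.1 letters ranged from 13.3% (both marks kept) to 16.7% (H3K27ac alone kept, 18 of 108 windows), with overlapping intervals. Median GC content was 44.0% in dual-mark windows and 45.0% in all. A match is a run of letters and not an occupied site.

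The midpoints of the 4072 regions lay in introns of 2041 protein-coding genes, which is 9.38% of the 21755 on these chromosomes. Of these hosts, 1209 had 1 region, 158 had at least 5 and 29 had at least 10. Hosts were long, with a median of 44.7 kb against 17.4 kb for all protein-coding genes. Length was not particular to them. Counted per region, the median was 63233 bp for dual-mark hosts, 102396 bp for hosts of H3K27ac-alone regions and 42869.5 bp for hosts of H3K36me3-alone regions. Overlapping genes shared 94 regions, which were counted in each. Among 830 hosts with at least 2 regions, all regions kept both marks in 142, all kept H3K36me3 alone in 10, all kept H3K27ac alone in 1, and 600 mixed outcomes. Regions of a gene share its transcription and are not independent of each other.

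Pid1 had the most dual-mark regions, 24, followed by Tns3 with 22, the transcription factor gene Zeb2 with 19, the Cdc42 exchange factor gene Fgd4 with 17 and the integrin activator Apbb1ip (RIAM) with 16. There were 15 each in Osbpl8, a lipid exchange protein of the endoplasmic reticulum, Mbnl1, a splicing regulator, Asap1, an Arf GTPase-activating protein, Zmiz1, a transcriptional coactivator, and Mtss1, which links membranes to actin. The genes with most regions that kept both marks were chosen for that count, which stands beside the 45.8% of all dual-mark regions with that outcome. Mbnl1 kept both marks at 14 of its 15 regions, the RNA-binding protein gene Rbm47 at 12 of 14, Zeb2 at 13 of 19, Apbb1ip at 12 of 16 and Tns3 at 12 of 22.

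In Mbnl1 (chr3:60472830-60629750, plus strand), H3K27ac covered 86.5 and 84.2% of the summed length of its regions in WT and 66.8 and 71.3% in cKO. H3K36me3 covered 45.4 and 50.1% in WT and 54.3 and 90.9% in cKO. Both cKO H3K27ac libraries lay below WT and both cKO H3K36me3 libraries above it. Zeb2 (chr2:44983632-45117395, minus strand), which maintains macrophage identity, had 81.5 and 77.3% H3K27ac in WT, 48.6 and 48.8% in cKO, and 83.4, 87.5, 85.8 and 97.9% H3K36me3 in WT replicates 1 and 2 and cKO replicates 1 and 2.

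**Figure D5:**
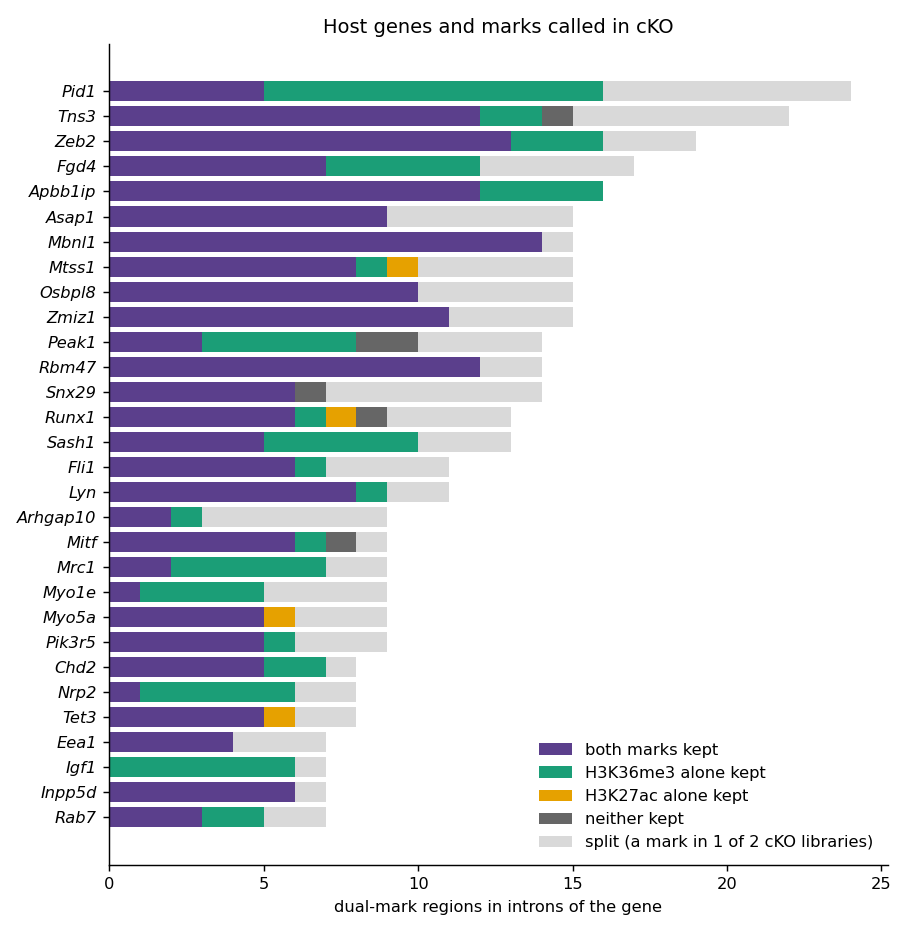
Number of dual-mark regions (horizontal axis) with their midpoint in introns of the 30 named host genes that held most of them, stacked by the marks called in cKO. Mbnl1, Rbm47 and Inpp5d are mostly purple (both marks kept), whereas Igf1, Nrp2, Mrc1 and Pid1 are led by green (H3K36me3 alone kept).

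The hosts with most regions that kept H3K36me3 alone were Pid1 (11 of 24), Igf1 (6 of 7), Nrp2 (5 of 8), Sash1 (5 of 13) and Peak1 (5 of 14). These counts stand beside the 14.8% of all dual-mark regions with that outcome, and the genes were chosen for them. In Pid1 (chr1:84036296-84364180, minus strand), H3K27ac covered 67.1 and 66.3% of the summed length of its regions in WT and 13.1 and 7.39% in cKO. H3K36me3 covered 73.5 and 79.4% in WT and 54.3 and 86.4% in cKO.

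Igf1 encodes insulin-like growth factor 1, which macrophages secrete. H3K27ac covered 55.8 and 53.1% of the length of its 7 regions in WT and 2.92 and 0% in cKO. H3K36me3 covered all of it in WT replicate 1, 96.3% in WT replicate 2, 84.9% in cKO replicate 1 and all of it in cKO replicate 2. Its region at chr10:87883141-87886946 in intron 2 shows the contrast: H3K27ac covered 2889 and 2344 of 3806 bp in WT and 0 bp in cKO, while H3K36me3 covered all 3806 bp in each of the 4 libraries. Nrp2, the companion of Nrp1, had 83.1 and 67.5% H3K27ac in WT and 17.1 and 15.3% in cKO, with 75.7 and 79.7% H3K36me3 in WT and 74.9 and 93.7% in cKO. Its widest region (chr1:62715957-62725659, 9703 bp, intron 2) kept both marks, with 9703 and 8579 bp of H3K27ac in WT and 5783 and 5759 bp in cKO.

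Hosts of regions that kept H3K27ac alone had few of them: Swap70, which binds actin and Rac, Smox, Gramd1b, a sterol transporter, and Sh3bp5 had 2 each. Both regions of Gramd1b had this outcome. Its region at chr9:40323999-40326508 had H3K27ac over all 2510 bp in both WT libraries and over 1751 and 1882 bp in cKO, and H3K36me3 over 787 and 708 bp in WT and 0 bp in cKO. Regions that kept neither mark were led by Peak1 and Mllt10, with 2 each. In Mllt10, which encodes a partner of the H3K79 methyltransferase DOT1L, a region of 1273 bp in intron 2 had 403 and 501 bp of H3K27ac and 1273 and 984 bp of H3K36me3 in WT, and 0 bp of either in cKO.

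The widest dual-mark regions were in Dab2, an endocytic adaptor (26647 bp), Lpl, encoding lipoprotein lipase (26497 bp), and Csf1r, the receptor for the growth factor on which BMDMs depend (21997 bp), and all kept both marks. The Lpl and Csf1r regions ran past the ends of their genes. In the Dab2 region H3K27ac covered 10765 and 4585 bp in WT and 501 and 1162 bp in cKO, and H3K36me3 covered 21827 and 21326 bp in WT and 20861 and 22405 bp in cKO. Kept thus meant a small remnant of H3K27ac there. In the Csf1r region H3K27ac covered 10335 and 3426 bp in WT and 4316 and 2587 bp in cKO, and the WT and cKO libraries overlapped. H3K36me3 covered 17069 and 19791 bp in WT and all 21997 bp in both cKO libraries. The widest region that kept H3K36me3 alone was in Stab1, a scavenger receptor (13723 bp), with 2110 and 781 bp of H3K27ac in WT and 0 bp in cKO. The widest that kept H3K27ac alone was in Sema4a (6690 bp), with 1267 and 635 bp of H3K36me3 in WT and 0 bp in cKO.

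Gene groups written from general knowledge were then read against the hosts. WT lengths in these groups are again not free of the selection. The background for both marks is 57.7% of all dual-mark regions with H3K27ac and 76.4% with H3K36me3 in both cKO libraries. Counts of hosts stand against 2041 of 21755 protein-coding genes (9.38%), and against 2041 of the 5763 genes with an intronic H3.3-HA region. Of 41 macrophage transcription factor genes, 30 had an intronic H3.3-HA region and 20 were hosts, with 92 regions, of which 65.2% had H3K27ac and 78.3% had H3K36me3 in both cKO libraries. Runx1 had 13, Fli1 11 and Mitf 9, and each of these 3 kept both marks at 6. In Mitf H3K27ac covered 89.4 and 87.5% of their length in WT and 55.9 and 58.5% in cKO.

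Surface and scavenger receptor genes had the largest gap between the marks of the 8 groups given here. Of 39 matched, 29 had an intronic H3.3-HA region and 21 were hosts, with 52 regions, of which 48.1% had H3K27ac and 98.1% had H3K36me3 in both cKO libraries. H3K27ac covered 65.1 and 54.2% of the length of these regions in WT and 29.96 and 32.3% in cKO, and H3K36me3 75.2 and 77.2% in WT and 85.4 and 92.6% in cKO. Both cKO libraries lay below WT for H3K27ac and above WT for H3K36me3. The mannose receptor gene Mrc1 had 9 regions, 5 with H3K36me3 alone kept. H3K27ac covered 59.1 and 51.8% of their length in WT and 7.50 and 7.33% in cKO, and H3K36me3 covered 92.8 and 91.1% in WT, 98.3% in cKO replicate 1 and all of it in cKO replicate 2. All 4 regions of Itgb2, the common chain of the leukocyte integrins, kept both marks. Ptprc (CD45) had 5 regions, 3 with both marks kept, and Sirpa, an inhibitory receptor for CD47, had 4, 2 with both kept.

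Kinase, phosphatase and phosphoinositide genes contributed 30 hosts, of 48 genes in all and 45 with an intronic H3.3-HA region, and 98 regions, with 71.4% for H3K27ac and 77.6% for H3K36me3. The Src family kinase gene Lyn kept both marks at 8 of 11, the inositol phosphatase gene Inpp5d (SHIP1) at 6 of 7, Pik3r5, a regulatory subunit of PI3K gamma, at 5 of 9, and Dgkd, a diacylglycerol kinase, at 4 of 6. In Inpp5d the H3K27ac libraries overlapped between genotypes, with 87.7 and 85.2% of length in WT and 80.0 and 92.4% in cKO. In Lyn they also overlapped, at 88.8 and 79.4% in WT and 71.1 and 81.3% in cKO.

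Lysosome and vesicle traffic genes had 34 hosts, of 53 genes in all and 48 with an intronic H3.3-HA region, and 100 regions (55.0% and 82.0%), among them Snx29 with 14, the small GTPase gene Rab7 and the early endosome gene Eea1 with 7 each, and Ehd4 with 6. Lipid and sterol genes had 18 hosts, of 48 genes in all and 40 with an intronic H3.3-HA region, and 45 regions (64.4% and 75.6%), with Osbpl8 first, then Soat1, a sterol acyltransferase gene, with 4, and Lpl and Alox5ap, needed for leukotriene synthesis, with 3 each. In Osbpl8 H3K27ac covered 69.3 and 65.6% of the length in WT and 30.2 and 28.2% in cKO, whereas H3K36me3 covered 84.1 and 88.9% in WT and 96.4 and 99.9% in cKO. Chromatin regulator genes had 30 hosts, of 65 genes in all and 56 with an intronic H3.3-HA region, and 64 regions (60.9% and 71.9%), including the methylcytosine dioxygenase gene Tet3 and the remodeler gene Chd2 with 8 each, the DNA methyltransferase gene Dnmt3a with 5 and Zmynd8 with 4.

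Of 61 interferon-stimulated genes, 28 had an intronic H3.3-HA region and 15 were hosts. They held 21 regions, of which 71.4% had H3K27ac and 90.5% had H3K36me3 in both cKO libraries. This was the only group of these 8 in which H3K27ac covered more length in a cKO library than in both WT libraries, at 46.5 and 41.3% in cKO against 43.8 and 44.0% in WT. Sp100 had 3 such regions and Trim25 and Tor3a had 2 each. Of 56 cell cycle, replication and repair genes, 28 had an intronic H3.3-HA region and 6 were hosts (10.7% of the 56), a share near that of all protein-coding genes. They held 10 regions, of which 40% had H3K27ac and 60% had H3K36me3 in both cKO libraries. These regions lay in genes such as Fancc (3), the DNA polymerase delta subunit gene Pold3 (2), the kinase gene Cdk6 (2) and Parp1 (1), and 3 of the 10 kept both marks. Groups differ in gene length and number of H3.3-HA regions, and no group was tested against another.

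Lyz2, the gene whose locus carries Cre in the cKO mice, hosted a region of 9973 bp with its midpoint in intron 2 (chr10:117274152-117284124). The region extended past both ends of the gene (chr10:117277331-117282321). H3K27ac covered 8915 and 8751 bp in WT and 1731 and 641 bp in cKO, and H3K36me3 3298 and 3207 bp in WT and 4859 and 7039 bp in cKO. The Cre insertion changes this locus in cKO alone, so its part in these values cannot be told apart from that of H3.3. Adgre1, encoding the macrophage antigen F4/80, had 3 regions, with H3K27ac over 47.8 and 32.0% of length in WT and 10.6 and 0% in cKO, and H3K36me3 over 98.8 and 89.7% in WT, 88.5% in cKO replicate 1 and all of it in cKO replicate 2.

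The rule has an edge at 1 bp of overlap. The smallest overlap of a dual-mark region with a WT mark list had a median of 800.5 bp, and it was under 50 bp in 95 regions and under 500 bp in 1006. Just outside the rule were intronic regions that lacked only 1 WT library. There were 250 that lacked WT H3K27ac replicate 1 and 564 that lacked replicate 2, with the nearest region of that list a median of 1491 and 1932.5 bp away, and 671 and 459 that lacked WT H3K36me3 replicate 1 or 2, at 818 and 623 bp.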

How the data were processed

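Regions of 10 CUT & RUN libraries entered: 2 of H3.3-HA, and for each of the marks H3K27ac and H3K36me3 2 of WT and 2 of cKO. The 5 IgG samples entered only as the controls of peak calling. The authors aligned paired-end reads with Bowtie2 (local alignment, build mm10) and used HOMER on each library. Per the file headers, regions needed 4-fold enrichment over control and a Poisson p-value limit of 1e-04, at a peak size of 500 bp. The deposited lists hold start and end positions with a constant score, so no signal per region could be weighed, and a region missed in a library may differ little in signal.

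The H3.3-HA lists on chromosomes 1 to 19 and X were merged, and regions found in both replicates were placed by midpoint on GENCODE M21 basic transcripts of protein-coding genes in the order promoter-TSS (1000 bp upstream to 100 bp downstream), TTS, exon, intron. Overlap meant at least 1 bp. A mark was kept when called in both cKO libraries. Groups and replicate numbers came from the labels, and p-values measure only the spread between these samples. Libraries were compared with exact permutation tests (smallest p = 0.333 for 2 against 2 and 0.5 for sign flips of 2). Overlap functions were tested on simulated intervals. Python 3.11.15, pandas 2.3.3, statsmodels 0.14.6 and pysam 0.24.0 were used. The regions, gene lists and tests were chosen with earlier results of these data known. Named host genes were the 10 with most regions, the 5 with most of each outcome and up to 4 per gene list. The widest regions, and the Igf1, Nrp2, Gramd1b and Mllt10 regions given singly, were named after their values were seen. Unused WT libraries as a reference were added after seeing the data. Alternatives covered the midpoint class, transcripts, overlap, width, list length, H3.3-HA stretch and each library left out. Some items are withheld and not reported here.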

Additional observations from a re-analysis of the deposited data

How the results depend on the processing

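The scores were constant, so a stricter calling threshold could not be applied and a minimum width took its place. The number of dual-mark regions was 1397 with 50% coverage required and 1602 without regions under 1000 bp. The share with H3K27ac in both cKO libraries (57.7%) was 32.6% with 50% coverage and 54.7% with the minimum width. It was 60.1% with lists of an equal number of regions within each mark, and 49.9% on the stretch called in both H3.3-HA replicates. The share with H3K36me3 (76.4%) was 66.6, 74.1, 78.9 and 73.7% under these settings and 74.9% with all GENCODE transcripts. The share with H3K36me3 alone (14.8%) was 31.9% with 50% coverage, 20.6% with the minimum width and 19.1% on the stretch. With 50% coverage, alone meant H3K27ac over less than 50% of the region in both cKO libraries, not its absence. With 1 library left out at a time, these shares spanned 44.4 to 70.1%, 70.1 to 93.0% and 13.3 to 23.6%, and the number of regions 4072 to 5000. Leaving out a cKO library changes what in both means.

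The difference between marks in cKO stayed positive in all 17 alternatives, from 9.75 to 27.7 points with a library left out and 38.9 with 50% coverage. The replicate number as a block was among the 17, and it cannot change the difference itself, which stayed at 17.4 points (p = 0.5 by exact sign flips). The labels tie no number to a shared animal. The difference in H3K27ac from the H3K27ac-alone regions (−0.325 points) was reversed to 0.0655 with all transcripts and to 1.41 without cKO H3K27ac replicate 2, spanning −7.48 to 1.41 with a library left out. The difference in H3K36me3 from the H3K36me3-alone regions (2.99 points) was reversed to −0.834 with 50% coverage and spanned 1.34 to 4.69. Without the block these gave p = 1.0 and 0.667 by exact permutation. The cause of these changes was not tested.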
